A study of Rattus norvegicus with 6 samples.

Results

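The miRNAs described here come from 5 hairpins that lie together on rat chromosome 6, opposite the gene Rtl1. They were chosen by name, as every annotated arm of rat miR-431, miR-433, miR-127, miR-434 and miR-136. This gave 9 of the 1465 miRNAs in the table: rno-miR-431, rno-miR-433-5p, rno-miR-433-3p, rno-miR-127-5p, rno-miR-127-3p, rno-miR-434-5p, rno-miR-434-3p, rno-miR-136-5p and rno-miR-136-3p. The prefix rno, for rat, is left out from here on. The group was assembled because miR-127-3p was known to be lower in stressed rats in these data, so no test of its difference is reported. The other 8 arms were taken by their place beside it. MiRNAs were sequenced from medial prefrontal cortex of 6 rats, 1 library per rat. Of these, 3 went through chronic mild stress (CMS) for 4 weeks, with shocks to the feet, restraint, swims in cold water, loss of food or water and other mild stressors in random order. The other 3 were Controls that were only handled and had their cages cleaned over the same 4 weeks. The labels name no strain, sex or age, and no genotype or drug distinguishes the groups. Values are the authors' normalized values, rounded to whole numbers, with blanks taken as 0.

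A miRNA hairpin is cut so that a short RNA can be kept from its left side (the 5p arm) and its right side (the 3p arm), and usually one arm is kept more than the other. Rtl1 is a gene derived from a retrotransposon that is expressed from the paternal chromosome. On the maternal chromosome a transcript is made from the opposite strand, and it carries the hairpins of this group within the imprinted Dlk1-Dio3 region. Because they are encoded opposite Rtl1, these miRNAs pair perfectly with the Rtl1 messenger RNA and can direct its cleavage, as shown in mice. The Dlk1-Dio3 region as a whole encodes many miRNAs that are abundant in brain.

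All 5 hairpins lay on the plus strand and within the span of Rtl1 in the RefSeq annotation of GRCr8. In order, they were miR-431 (chr6:134326449-134326562), miR-433 (chr6:134327358-134327450), miR-127 (chr6:134328454-134328550), miR-434 (chr6:134330402-134330482) and miR-136 (chr6:134331335-134331416). Together they spanned 4968 bases. RefSeq held a mature sequence for 7 of the 9 arms, shown here 5′ to 3′ with the seed (bases 2 to 8, which lead target pairing) in capitals, to show that each arm carries a seed of its own.
miR-431: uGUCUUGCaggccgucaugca
miR-433-5p: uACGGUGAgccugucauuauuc
miR-433-3p: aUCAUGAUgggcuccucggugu
miR-127-3p: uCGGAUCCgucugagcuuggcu
miR-434-5p: aGCUCGACucaugguuugaacca
miR-434-3p: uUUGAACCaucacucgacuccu
miR-136-3p: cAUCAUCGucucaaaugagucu
No 2 of these arms shared a seed, and no other rat miRNA in the RefSeq table carried any of the 7 seeds. The miR-127 hairpin is shown because its arms parted in the data, with the mature 3p arm in capitals.
miR-127 hairpin: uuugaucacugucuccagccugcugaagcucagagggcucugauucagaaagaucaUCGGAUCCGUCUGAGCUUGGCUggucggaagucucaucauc
GC content was 59.1% for miR-127-3p, which was the highest of the 7 arms, and 40.9% for miR-136-3p, which was the lowest. The median over matched annotated miRNAs was 47.8%. The arms of miR-434 shared a run of 9 bases, UUUGAACCA, and no other pair of arms shared a run that long. One other miRNA gene, Mir3543, lay between the outermost members. Its mature form is encoded on the minus strand of the miR-434 hairpin, is the exact reverse complement of all 22 bases of miR-434-3p, and was not analysed here.

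The libraries summed to between 709674 and 736078, and the number of reads behind them is unknown. All 6 neuronal miRNAs checked had values in every library, as in neural tissue. They summed to 95192 to 104327 in CMS and 86240 to 117523 in Control. That sum is mostly miR-9a-5p (70120 ± 9983 in CMS, 55344 ± 3889.5 in Control) and miR-128-3p (21707 ± 6597 in CMS, 42215 ± 20834 in Control). Their means differed in opposite directions. A further member, miR-137-3p (1293 ± 380 in CMS, 1820 ± 148 in Control), was lower in every CMS library and did not pass (limma adjusted p = 0.238). Summed levels of the oligodendrocyte list (1565 to 2599 in CMS, 1495 to 1751 in Control), the red blood cell list (260 to 443 in CMS, 177 to 351 in Control), the choroid plexus and epithelial list (734 to 1297 in CMS, 699 to 1471 in Control), the muscle list (17 to 63 in CMS, 35 to 73 in Control) and the liver miRNA miR-122-5p (6 to 8 in CMS, 6 to 13 in Control) overlapped between the groups. The choroid plexus and epithelial sum is mostly miR-204-5p. Of its scarce members, miR-200b-3p (20.7 ± 8.50 in CMS, 5.67 ± 3.21 in Control) and miR-200c-3p (4 ± 1 in CMS, 1.67 ± 0.577 in Control) were higher and miR-449a-5p (9.67 ± 6.51 in CMS, 18.7 ± 1.15 in Control) was lower in every CMS library. None of them passed (limma adjusted p = 0.130, 0.1 and 0.246), and their part in the results was not tested. The red blood cell sum is mostly miR-451-5p (218 ± 76.7 in CMS, 100.3 ± 74.5 in Control) and miR-486 (119.3 ± 17.0 in CMS, 130 ± 14.7 in Control). Their means differed in opposite directions, both overlapped between the groups, and neither passed (limma adjusted p = 0.220 and 0.651). In the same list the scarce miR-144-5p (4.67 ± 0.577 in CMS, 8 ± 2.65 in Control) was lower in every CMS library. It did not pass (limma adjusted p = 0.192), and its part was not tested either. Control 1 stood apart from the other Controls. Over 347 annotated miRNAs with a mean of at least 10, its median absolute log2 difference was 0.34 from Control 2 and 0.30 from Control 3, against 0.14 between Controls 2 and 3, and it was 0.23 from CMS 2. CMS pairs differed by 0.22 to 0.32. Results are therefore given with and without Control 1.

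The level of miR-127-3p, the arm for which its hairpin is mostly studied, was 2446, 2188 and 2436 in CMS libraries, against 9746, 11468 and 14422 in Control libraries. The groups were far apart, and the highest CMS library was below the lowest Control library, Control 1. Such a gap on the low side was seen for 6.24% of all 657 miRNAs tested. The mean was 2356.7 ± 146.2 in CMS and 11879 ± 2364.9 in Control (SD, n = 3 each), a ratio of 0.198. On the log2(value + 1) scale the difference was -2.32 ± 0.16 (SE), and -2.45 without Control 1. The CMS libraries lay close together, with a coefficient of variation of 6.20%, against 19.9% in Control. As tissue was sequenced in bulk, fewer cells of a type and less of the miRNA per cell cannot be told apart. Of the marker lists, the pituitary and endocrine list, which is nearly all miR-7a-5p, was also lower in every CMS library, with summed levels of 10912 to 15494 in CMS and 18996 to 29373 in Control. Its other member, miR-375-3p (4.67 ± 1.53 in CMS, 9 ± 7.94 in Control), was scarce and overlapped between the groups (limma adjusted p = 0.603). Both of the 2 members had values in all 6 libraries, neither was called, and the part of this list in the result was not tested.

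**Figure D1:**
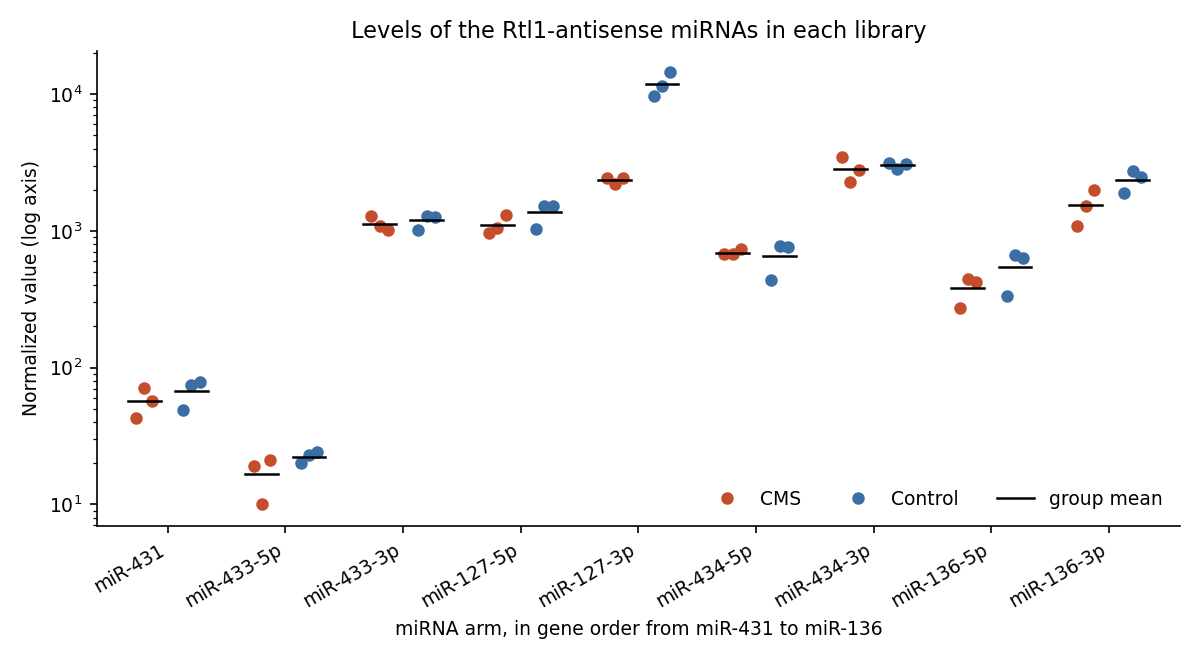
Normalized value (log axis) of each of the 9 arms in each library, in gene order, with CMS libraries left of Control libraries and a bar at each group mean. The CMS and Control points of miR-127-3p stand apart, at 2188 to 2446 and 9746 to 14422, and those of the other arms overlap.

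The other arm of the same hairpin, miR-127-5p, was at 967, 1046 and 1295 in CMS libraries, against 1037, 1529 and 1519 in Control libraries. Control 1 lay within the CMS values and the other Controls above them. The log2 difference was -0.29 ± 0.20 (SE), with a 95% interval of -0.79 to 0.20, and it did not pass (limma adjusted p = 0.385 over all 657 miRNAs tested). Without Control 1 the difference was -0.48 and the groups did not overlap, and it still did not pass (limma adjusted p = 0.124).

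Of the 8 arms other than miR-127-3p, 0 passed limma's test at an adjusted p under 0.05, where 4.11% of all 657 miRNAs passed (3.35% higher and 0.761% lower in CMS). The smallest unadjusted p of the 8 was 0.0461 (limma), for miR-136-3p. Many other miRNAs in the table had one as small, and its adjusted p was 0.205. The share of 4.11% stood for 27 calls, with miR-127-3p, which chose the group, among them. These 27 became 2 without CMS 1, 8 without CMS 2 and 5 without CMS 3. They became 55 without Control 1, 13 without Control 2 and 9 without Control 3. None of the 8 arms was among them in any of these fits. None of the 8 had groups that did not overlap, and 25.9% of all miRNAs did. All 9 members passed the filter on low values (at least 1 in at least 3 libraries) and each had a value in every library. The log2 differences of the 8 were nonetheless mostly below 0, with 7 negative and a median of -0.26. The median over annotated miRNAs with a mean of at least 10 was 0.06, with 147 of 347 negative. Quantile normalization moved that overall median to -0.04 and made all 8 arms negative.

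The arms of miR-136, the last hairpin of the group, had the lowest values relative to Control after miR-127-3p. The 3p arm was at 1082, 1522 and 1992 in CMS libraries, against 1893, 2731 and 2489 in Control libraries. Only CMS 3 reached above the lowest Control, Control 1. The log2 difference of miR-136-3p was -0.66 ± 0.26 (SE), with a 95% interval of -1.30 to -0.02, and it did not pass after adjustment (limma adjusted p = 0.205). The 5p arm was at 272, 441 and 425 in CMS libraries, against 335 in Control 1 and at least 631 in both other Control libraries. Again Control 1 lay among the CMS libraries and Controls 2 and 3 lay above them. The mean of miR-136-5p was 379.3 ± 93.3 in CMS and 544.7 ± 182.5 in Control (SD, n = 3 each). Its log2 difference of -0.49 ± 0.33 (SE) did not pass (limma adjusted p = 0.380). Without Control 1 both arms were at -0.81, and neither passed (limma adjusted p = 0.146 for 3p and 0.125 for 5p).

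The main arms of the hairpins on either side of miR-127 lay closer to their Control levels. The main arm of the upstream neighbour, miR-433-3p, was at 1273, 1076 and 1014 in CMS libraries, against 1012, 1292 and 1267 in Control libraries. The groups covered the same range, and the log2 difference was -0.08 with a 95% interval of -0.45 to 0.28 (limma adjusted p = 0.761). The main arm of the downstream neighbour, miR-434-3p, was at 3439, 2285 and 2771 in CMS libraries, against 3120, 2815 and 3101 in Control libraries. CMS libraries lay on both sides of the Controls, and the log2 difference was -0.11 with a 95% interval of -0.51 to 0.30 (limma adjusted p = 0.719). Its minor arm miR-434-5p was at 678, 672 and 731 in CMS libraries, against 435, 775 and 762 in Control libraries. This was the only arm with a difference above 0, at 0.12 (limma adjusted p = 0.807), and it turned to -0.15 without Control 1, whose value of 435 was the lowest. Whether miR-127-3p differed from these main arms was not tested, because its difference of -2.32 chose the group.

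The remaining arms were scarce. miR-431, studied in mice for its part in the regrowth of axons, was at 43, 71 and 57 in CMS libraries, against 49, 74 and 78 in Control libraries. The minor arm miR-433-5p was at 19, 10 and 21 in CMS libraries, against 20, 23 and 24 in Control libraries. In both, Control 1 lay within the CMS range. The log2 differences were -0.23 for miR-431 and -0.46 for miR-433-5p (limma adjusted p = 0.633 and 0.348).

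Leaving out Control 1, all 8 arms other than miR-127-3p had a negative log2 difference, with a median of -0.46 and a range of -0.81 to -0.08. Control 1 was the Control nearest to every CMS library (median absolute log2 difference 0.233 to 0.375), so leaving it out by itself sets the groups further apart. For 6 of the 8, every CMS library was then below both remaining Controls, which was so for 18.1% of the 645 miRNAs tested, 25.9% of annotated miRNAs with a mean of at least 10 and 36.2% of the 58 further Dlk1-Dio3 arms at that level. The 2 exceptions were miR-433-3p and miR-434-3p. None of the 8 passed (smallest limma adjusted p = 0.124), where 8.53% of miRNAs did. The median over annotated miRNAs with a mean of at least 10 was then 0.03, with 163 of 347 negative. The summed value of the 8 arms was 7773, 7123 and 8306 in CMS libraries, against 7901, 9907 and 9871 in Control libraries, so that Control 1 lay inside the CMS range and Controls 2 and 3 above it. With CMS 1 left out instead, miR-136-3p (-0.43), miR-136-5p (-0.27), miR-127-5p (-0.20) and miR-431 (-0.04) lay nearer to 0 than with all libraries. Further below 0 than with all libraries were miR-433-5p (-0.58), miR-434-3p (-0.26) and miR-433-3p (-0.18), and miR-434-5p was at 0.14.

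The share of miR-127-3p in the sum of all 9 arms was 23.9%, 23.5% and 22.7% in CMS libraries, against 55.2%, 53.7% and 59.4% in Control libraries. The 9 arms together made up 1.39%, 1.31% and 1.51% of the CMS libraries, against 2.40%, 2.98% and 3.36% of the Control libraries. Within a library, miR-127-3p was 1.92, 2.03 and 2.40 times as high as miR-433-3p in CMS, against 9.63, 8.88 and 11.4 times in Control. Its ratio to miR-434-3p was 0.711, 0.958 and 0.879 in CMS, against 3.12, 4.07 and 4.65 in Control. Its ratio to miR-136-3p differed less, at 2.26, 1.44 and 1.22 in CMS, against 5.15, 4.199 and 5.79 in Control. These ratios are taken within a library and do not depend on how libraries were scaled to each other. In each of them Control 1 lay closer to both other Controls than to any CMS library. The shares and ratios here all hold miR-127-3p, which was chosen for being lower in CMS. Their separation between the groups therefore followed from that choice and has no test.

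The order of levels changed at its top. With lengths of 21 to 23 bases for the arms with a sequence, no scaling by length was applied. In all 3 CMS libraries miR-434-3p was the highest of the 9 arms and miR-127-3p came next, with overlapping ranges of 2285 to 3439 and 2188 to 2446. In all 3 Control libraries miR-127-3p was the highest, followed by miR-434-3p and miR-136-3p, whose ranges did not overlap. In the middle of the order, the ranges of miR-136-3p, miR-127-5p and miR-433-3p overlapped in CMS, and those of miR-127-5p and miR-433-3p overlapped in Control. The lowest places were the same in every library, with miR-434-5p above miR-136-5p, then miR-431 and then miR-433-5p. Of these, the ranges of miR-434-5p and miR-136-5p overlapped in Control.

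Both arms were listed for 4 of the 5 hairpins, which allowed the 3p over 5p ratio to be set side by side. For miR-127 the ratio was 2.53, 2.09 and 1.88 in CMS libraries, against 9.40, 7.50 and 9.49 in Control libraries. The 3p arm stayed the higher one in all libraries, by far less in CMS. The log2 difference of the ratio was -2.02 ± 0.21 (SE), and -1.97 without Control 1. No test is reported for it, because it holds the value that chose the group. Both arms are cut from the same hairpin.

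For miR-136 the ratio was 3.98, 3.45 and 4.69 in CMS libraries, against 5.65, 4.09 and 3.95 in Control libraries. For miR-434 it was 5.07, 3.40 and 3.79 in CMS libraries, against 7.17, 3.63 and 4.07 in Control libraries. In both hairpins the groups overlapped and Control 1 had the highest ratio. For miR-433 the ratio was 67, 107.6 and 48.3 in CMS libraries, against 50.6, 56.2 and 52.8 in Control libraries. The highest of these, in CMS 2, stood on the lowest value of the scarce 5p arm, 10. None of the 3 ratios passed limma's test over 144 hairpins, of which 5.56% passed, miR-127 included. The log2 differences were 0.38 ± 0.28 for miR-433, -0.23 ± 0.30 for miR-434 and -0.17 ± 0.22 for miR-136 (SE, limma adjusted p = 0.361, 0.596 and 0.606). Without Control 1 that of miR-434 was 0.067 and that of miR-136 was -0.0044.

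**Figure D2:**
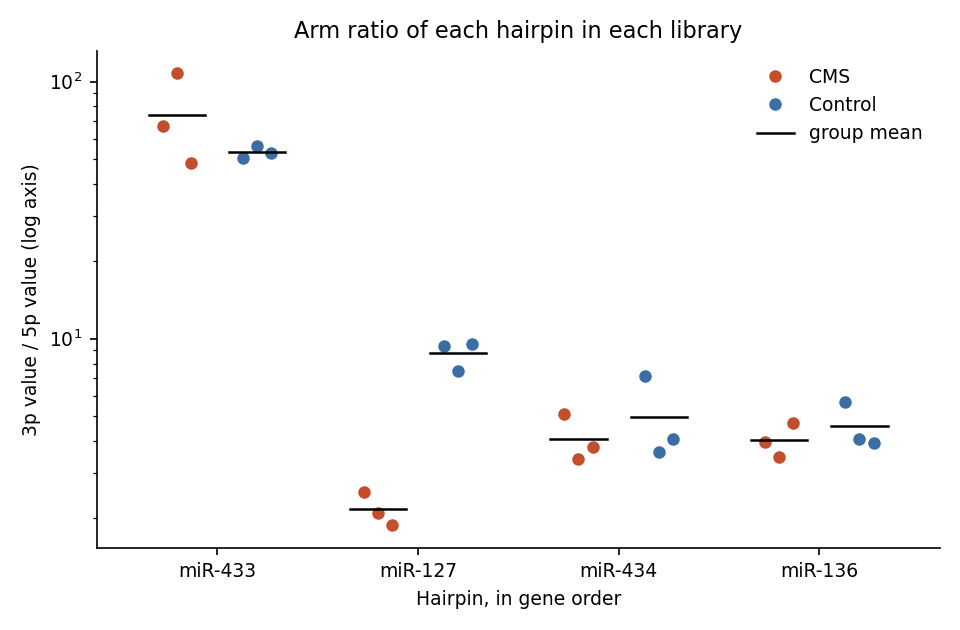
Ratio of the 3p value to the 5p value (log axis) of the 4 hairpins with both arms, in each library, with CMS left of Control and a bar at each group mean. The ratio of miR-127 was 1.88 to 2.53 in CMS and 7.50 to 9.49 in Control, and the groups of the other hairpins overlap.

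Arms parted in other hairpins too, in the region and outside it. Over all 144 hairpins miR-127 had the second-lowest log2 difference of the ratio, after miR-543, another Dlk1-Dio3 hairpin (-2.30 ± 0.39 (SE), limma adjusted p = 0.0212). The abundant arm miR-543-3p was at 842, 492 and 444 in CMS libraries, against 610, 1917 and 2113 in Control libraries, and the scarce miR-543-5p at 8, 5 and 7 in CMS libraries, against 2, 3 and 3 in Control libraries. The 3p arm overlapped through Control 1, the 5p arm was higher in every CMS library, and neither arm passed on its own (limma adjusted p = 0.225 and 0.0541). Of the 30 Dlk1-Dio3 hairpins outside the group, 4 passed (13.3%), with miR-543, miR-323 and miR-380 lower and miR-540 higher. The share over all 144 hairpins was 5.56%. Hairpins outside the region passed too, such as miR-148b, and the calls changed with the libraries used, as given below. For miR-323 the log2 difference was -1.04 (limma adjusted p = 0.0393), with a 3p arm at 1928.3 ± 190.2 in CMS and 2285.7 ± 308.2 in Control, and a 5p arm at 22.7 ± 1.53 in CMS and 12.7 ± 2.08 in Control (SD, n = 3 each). For miR-380 it was -0.90 (limma adjusted p = 0.0393), with a 3p arm at 81, 62 and 94 in CMS libraries, against 91, 150 and 152 in Control libraries. The median over the 30 hairpins was -0.28. They include scarce arms such as miR-543-5p, so this median is not on a par with the one given below for hairpins with more abundant arms.

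Among the 91 hairpins with both arms at a mean of at least 10, which leaves out miR-543 and miR-540, miR-127 had the lowest ratio difference and the median was -0.03. The places of miR-127 among the 91 and the 144 hairpins hold the value that chose the group, so they are a description only. The next lowest of the 91 was miR-148b, outside the region, with ratios of 57.0, 40.4 and 51.5 in CMS libraries, against 102.7, 113.6 and 123.7 in Control libraries (log2 difference -1.18, limma adjusted p = 0.0212). The 8 hairpins called over all 144 were miR-127 and 7 others. Their count was 45 without Control 1, 4 without Control 2 and 1 without Control 3 or any 1 CMS library.

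The miRNA genes next to the group were set beside it. On the upstream side miR-540-3p was at 66, 58 and 62 in CMS libraries, against 36, 44 and 36 in Control libraries. It was higher in every CMS library and did not pass (log2 difference 0.67, limma adjusted p = 0.0517). The other arm, miR-540-5p, was lower in every CMS library, at 4, 4 and 5 in CMS libraries, against 7, 6 and 7 in Control libraries (log2 difference -0.53, limma adjusted p = 0.123). The log2 difference of its 3p over 5p ratio was 1.198 and passed (limma adjusted p = 0.0212). The closest upstream miRNA, miR-665, was at 4, 11 and 9 in CMS libraries, against 8, 15 and 14 in Control libraries, with overlapping groups (log2 difference -0.62, limma adjusted p = 0.365). On the downstream side miR-341 was at 1329, 1741 and 1860 in CMS libraries, against 1628, 2758 and 2429 in Control libraries. It had the pattern of miR-136, with Control 1 among the CMS libraries (log2 difference -0.45, limma adjusted p = 0.290). Further downstream, the scarce miR-1188-5p was lower in every CMS library (log2 difference -0.72, limma adjusted p = 0.140). miR-370-5p was higher in every CMS library (0.51, limma adjusted p = 0.220), and miR-370-3p overlapped (-0.03, limma adjusted p = 0.996). Further upstream, miR-337-5p was higher in every CMS library (0.21, limma adjusted p = 0.246), and miR-337-3p overlapped (0.08, limma adjusted p = 0.921). The genes of miR-665 and miR-341 are the closest miRNA genes on either side, and the arms of miR-540, as well as miR-380 and miR-543 above, were picked after their values were seen.

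Of 84 further arms of the Dlk1-Dio3 region in the table, 74 passed the filter on low values, and none of them was called lower or higher. Among the 58 with a mean of at least 10, 27 had a negative and 31 a positive log2 difference, with a median of 0.04. They reached from -1.25 for miR-543-3p to 0.80 for miR-323-5p. The difference of miR-127-3p, at -2.32, lay outside that range (-2.45 without Control 1). As this difference chose the group, its place beside the 58 is a description only. Without Control 1 the median of the 58 was -0.12, with 34 negative. The lowest was then miR-376a-3p at -2.09, which passed (limma adjusted p = 0.0323). It was at 8, 4 and 6 in CMS libraries, against 4, 29 and 27 in Control libraries, and with Control 1 its difference was -1.25 (limma adjusted p = 0.330). The shift toward lower values without Control 1 was also found in the wider region, and whether the group of 8 arms differed from it was not tested.

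**Figure D3:**
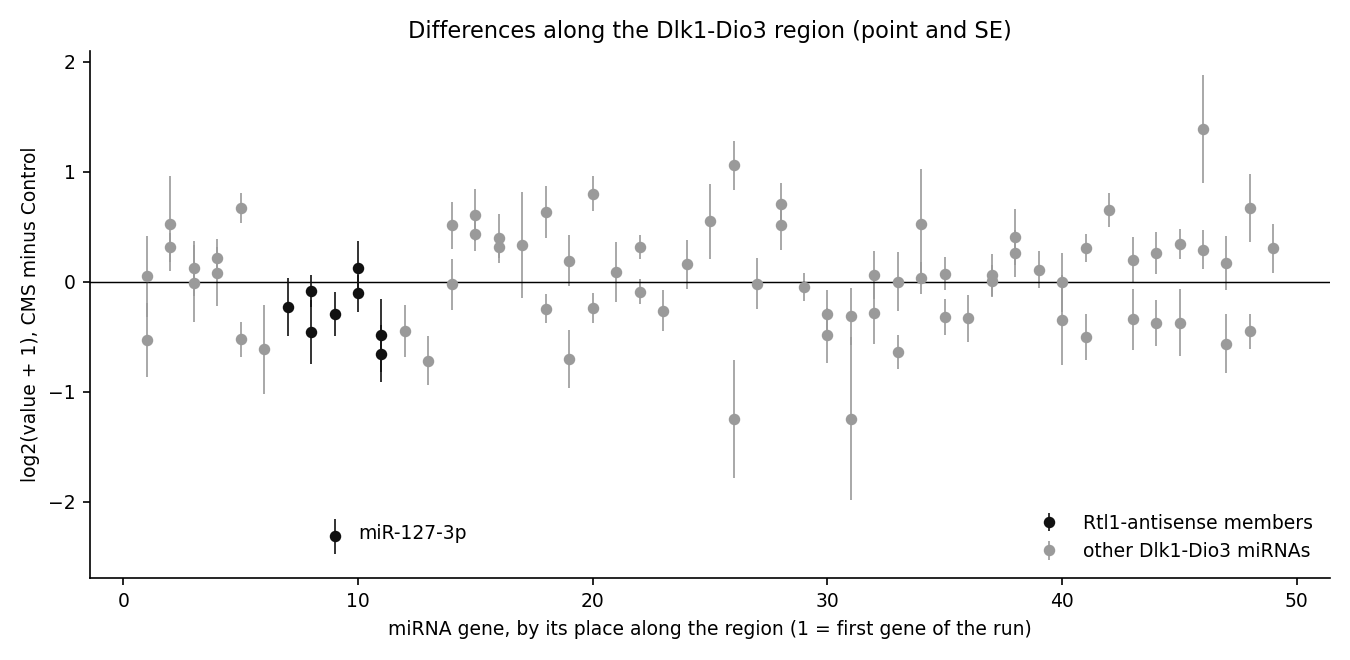
Log2 difference, CMS minus Control, of each tested miRNA arm of the Dlk1-Dio3 region, with its SE, by the place of its gene along the region. Members (black) stand at places 7 to 11. The arm whose difference chose the group, miR-127-3p, is below all others at -2.32, while its hairpin partner at -0.29 lies among the neighbours.

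**Figure D4:**
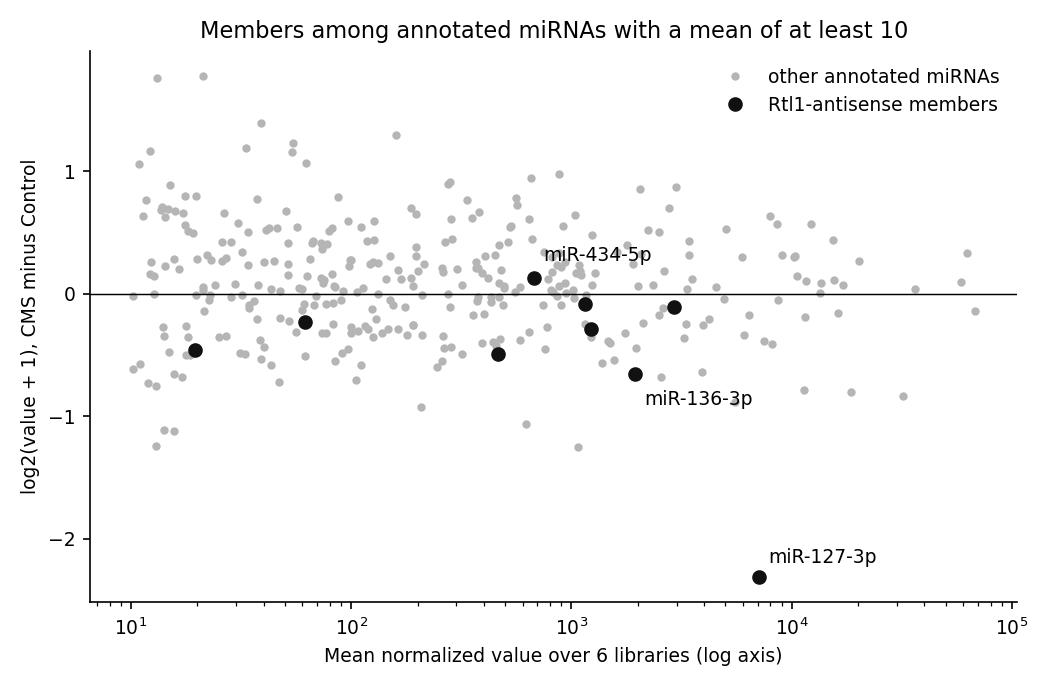
Log2 difference, CMS minus Control, against the mean value over 6 libraries (log axis) for the 347 annotated miRNAs with a mean of at least 10, with the 9 members in black. Apart from miR-127-3p at -2.32, the members lie between -0.66 and 0.12, inside the cloud of other miRNAs.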

How the data were processed

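Small RNA libraries of medial prefrontal cortex were compared between CMS and Control rats, grouped by their titles (n = 3 each). Reads were aligned with Novoalign 2.07.11, per the submitters' processing notes. Of genome build, miRNA annotation and normalization, the sources used here state none. The deposited values are treated as a score, a normalized value rounded to whole numbers, because library sums differ by only 3.72% and low values vary less than counted reads would. Depth is therefore unknown, and no counting interval is given.

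All miRNAs that reached 1 in 3 or more libraries were fitted together with limma-trend (limma 3.58.1, R 4.3.3) on log2(value + 1), and p-values were adjusted after Benjamini-Hochberg (threshold 0.05). This scale understates changes of low miRNAs. Arm ratios were fitted with limma over all hairpins with both arms past the filter. Both fits and the counts called in them include miR-127-3p and the miR-127 ratio, for which no p-value is reported. With 3 rats a group the smallest two-sided exact permutation p is 0.1. Whether rats with the same number were handled together is not given. Members, lists and the named miRNAs were chosen with earlier results of these data known. Named miRNAs are the members, their gene neighbours, the 3 most alike in pattern to each miR-127 arm and the 2 hairpins with the lowest ratio differences after miR-127 among those with both arms at a mean of at least 10. Sequences and positions are from RefSeq (GRCr8), where 625 of 694 annotated names matched. Alternatives were other pseudocounts (0.1 and 10), filters, scalings (quantile normalization, trimmed-mean rescaling), annotated miRNAs only, no trend, a replicate block and leaving out each library.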

Additional observations from a re-analysis of the deposited data

How the results depend on the processing

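The log2 difference of miR-127-3p stayed within -2.45 to -2.17 over the 14 alternatives run for it, and that of its arm ratio within -2.14 to -1.93 over 11, which leave out the scalings, the fit on annotated miRNAs only and the one with no trend. None of the other 8 arms was called in any of the 15 alternatives. Signs changed for miR-434 only: miR-434-5p was at -0.0079 with quantile normalization and -0.15 without Control 1, miR-434-3p at 0.037 without CMS 2, and the miR-434 ratio at 0.067 without Control 1. With 1 library left out, miR-434-5p ranged from -0.15 to 0.27, miR-434-3p from -0.26 to 0.037 and the miR-434 ratio from -0.42 to 0.067. The background counts moved more. The 27 miRNAs called over the whole table became 11 with annotated miRNAs only and 2 to 55 with 1 library left out. The 8 hairpins called became 5 with a pseudocount of 0.1, 34 with a pseudocount of 10, 4 with no filter, 19 with a minimum mean of 10, and 1 to 45 with 1 library left out. The cause of these moves was not tested. The median of the other Dlk1-Dio3 miRNAs stayed between -0.12 and 0.16.

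The replicate numbers left no sign of pairing in the values, as deviations of same-numbered libraries correlated at -0.14, -0.09 and 0.02. With so few libraries this cannot show whether same-numbered rats were handled together. With the replicate block 1 miRNA and 6 hairpins were called, and none of the 8 arms. Of the CMS libraries only CMS 3 correlated best with the Control of its own number, at 0.02.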

Other observations

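The miRNAs whose levels followed miR-127-3p most closely over the 6 libraries were found among 338 annotated miRNAs with a mean of at least 10. They were miR-384-5p (Pearson r = 0.941), miR-335 (r = 0.939) and miR-148b-3p (r = 0.897). These values serve as a measure of likeness and carry no test, since the libraries fall into the CMS and Control groups and a difference between the groups is enough to make r high. The level of miR-384-5p was 1074.3 ± 46.3 in CMS and 1372.7 ± 125.3 in Control (SD, n = 3 each). The level of miR-335 was 209.7 ± 16.9 in CMS and 309 ± 37.5 in Control, and that of miR-148b-3p was 1955 ± 214.5 in CMS and 3137 ± 435.3 in Control. None of the 3 passed (limma adjusted p = 0.129, 0.0821 and 0.0541).

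Closest to miR-127-5p were other miRNAs, namely miR-376a-5p of the same imprinted region (r = 0.977), miR-184 (r = 0.974) and miR-142-3p, which is found mainly in blood-derived cells (r = 0.965). The level of miR-376a-5p was 49.3 ± 6.81 in CMS and 63.3 ± 18.7 in Control. The level of miR-142-3p was 8.67 ± 2.52 in CMS and 15.3 ± 5.51 in Control. None of these passed either (limma adjusted p = 0.487, 0.348 and 0.246). Among the members, miR-136-5p (r = 0.921) and miR-136-3p (r = 0.899) followed miR-127-5p more closely than miR-127-3p did (r = 0.624). These r values carry no test either. In miR-127-5p and both miR-136 arms Control 1 lay below Controls 2 and 3, a pattern of libraries that is enough to raise r.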
